A study of Mus musculus with 6 samples.

Results

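The clustered histone genes are the core and linker histone genes that lie side by side in 4 groups in the mouse genome, and they were taken here as every gene symbol that starts with Hist1h, Hist2h, Hist3h or Hist4h. The rule found 67 of the 23889 genes in the tables. They comprised 6 genes for the linker histone H1, 18 for H2A, 18 for H2B, 12 for H3 and 13 for H4. The Hist1 cluster on chromosome 13 held 53 of them, Hist2 on chromosome 3 held 10, Hist3 on chromosome 11 held 3 and Hist4 on chromosome 6 held 1. Messenger RNA selected by its polyA tail was sequenced from 6 libraries. AG-haESCs, androgenetic haploid embryonic stem cells, gave 3 libraries, 1 from each of the lines A129-2, AOS-14 and AOS-16. Their strain is given as F1 hybrid C57BL/6 X DBA/2, and they derive from embryos made by placing a sperm head in an oocyte without its spindle. The lines were kept on feeders in a medium based on serum replacement that contained 2i, a pair of kinase inhibitors, and RNA came from G0/G1 cells taken by flow sorting. Round sperm, labelled with the same strain, gave 1 library, and its label carries the same text on culture and sorting. ESC XX, embryonic stem cells of an Oct-GFP (C57) background grown in serum, LIF and 2i, gave 2 libraries, collected after removal of feeders with no sort named. The study set out to find how the transcripts of AG-haESCs differ from those of the other samples.

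Histones package DNA into nucleosomes, which are built from H2A, H2B, H3 and H4 and joined by the linker histone H1. Most clustered histone genes are transcribed in S phase, and their mRNA ends in a short stem-loop in place of a polyA tail, so selection of polyA RNA recovers it poorly. Some clustered genes can also give longer transcripts with a polyA tail, mostly in cells that have left the cell cycle, and a few such as Hist1h1t, Hist1h2aa and Hist1h2ba are used in the male germline, where histones are later replaced by transition proteins and protamines.

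The 16-base stem-loop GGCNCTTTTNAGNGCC was searched on the sense strand in the GENCODE M21 transcripts of each gene. It was found in 42 of 67 clustered histone genes (62.7%) and in 45 of 22602 genes with a transcript (0.199%). The 3 carriers that are not members were H2afx, H2bfm and Trim17. Trim17 lies between Hist3h2bb-ps and Hist3h2a and overlaps exons of Hist3h2a on the same strand, so its match may be that of Hist3h2a. The genes printed here are those on which the results below turn, with the stem-loop in capitals and 5 bases on either side.
Hist1h1t: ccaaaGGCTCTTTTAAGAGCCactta
Hist1h2bp: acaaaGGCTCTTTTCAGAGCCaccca
Hist1h3a: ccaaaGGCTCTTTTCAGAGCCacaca
Hist1h1c: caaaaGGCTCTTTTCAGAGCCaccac
Hist1h4i: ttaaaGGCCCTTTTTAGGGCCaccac
Hist3h2a: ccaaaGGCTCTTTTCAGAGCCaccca
The annotated transcript went on for 37 nt after the stem-loop in Hist1h3a and for 38 nt in the shorter transcript of Hist1h2bp, which has a second transcript of 621 nt without the stem-loop. It went on for 185 nt in Hist1h1t, 330 nt in Hist1h4i, 840 nt in Hist1h1c and 1643 nt in Hist3h2a. Of the 42 genes with the stem-loop, 21 had transcripts that ended 3 to 74 nt after it and 21 had transcripts that went on for 151 to 4884 nt, a division at 100 nt that was made after the values were seen. The median level in TPM, FPKM rescaled to the same total in every library, was 1.46 in AG-haESCs and 2.74 in ESC XX for the 21 genes with long ends. It was 0.986 in AG-haESCs and 2.21 in ESC XX for the 21 genes that end near the stem-loop, and 0.986 and 2.00 for the 25 genes without a match. Hist1h2bc and Hist2h2be, 2 of the H2B genes described below, have annotated transcripts of 1156 and 2620 nt without a match. Others without a match have short annotated transcripts, such as 390 nt for Hist1h2aa, 384 nt for Hist1h2ba and 312 nt for Hist1h4k. A stem-loop past the annotated end would have been missed, so no match does not mean that a gene lacks it.

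The members were low throughout. Values are given as FPKM, which divides fragments by transcript length and library depth. Only 7 of the 67 reached 10 FPKM in any library, and the other 60 had a highest value of 9.22 FPKM, that of Hist1h3a in round sperm. Of 402 values, 131 were listed at 0, which can be a failed estimate as well as an absence. The number of members at 0 was 20 for A129-2, 12 for AOS-14 and 33 for AOS-16, against 40 in round sperm and 16 and 10 in the ESC XX libraries. The 6 genes Hist1h2ao, Hist1h2ap, Hist1h2bq, Hist1h4n, Hist2h3c1 and Hist2h3c2 were at 0 in all 6 libraries. These 6 are near copies of other clustered histone genes: 92.3 to 100% of the 50-base stretches of their annotated transcripts, up to the stem-loop, also occur in another such gene of the annotation, against a median of 53.6% for the remaining 61. For Hist1h2bq that gene is Hist1h2br, which is not among the 67. Over all 67, 10 members shared more than 90% of these stretches and 6 shared none, so reads of many members could have been split among copies or left out, and values of single members are uncertain to that extent.

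**Figure D1:**
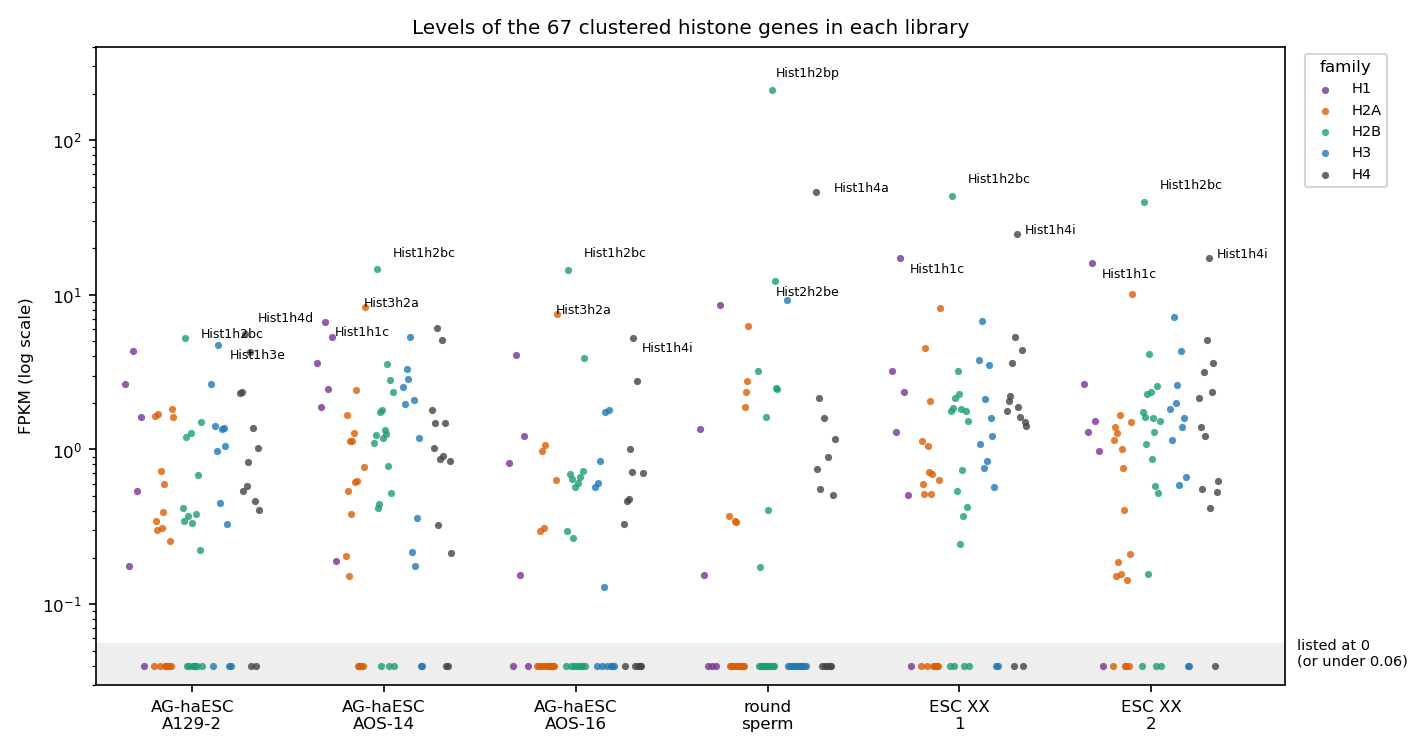
FPKM (log scale) of the 67 clustered histone genes in each library, 1 point a gene, coloured by histone family, with the 3 highest genes of each library named. Points in the grey band are listed at 0 or under 0.06 FPKM. Hist1h2bp at 211.7 FPKM and Hist1h4a at 45.99 FPKM in round sperm and Hist1h2bc at 43.63 and 40.04 FPKM in ESC XX stand above the rest.

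Few fragments lay behind most of these values. Low FPKM step by whole fragments, and from these steps 1 fragment on a gene of 480 nt was worth 0.370, 0.171 and 0.315 FPKM in A129-2, AOS-14 and AOS-16, against 0.313 in round sperm and 0.203 and 0.179 in the ESC XX libraries. For the 62 members with a compact gene, 125 of 372 values corresponded to no fragment, 87 to 1 to 3, 124 to 4 to 20 and 36 to more than 20. These estimates stand in for counts that were not used here, and differences between members at 1 to 3 fragments are not detectable at this depth. AOS-14 was the most deeply sequenced AG-haESC library, at an estimated 19.8 M (mega) fragments, against 9.17 M in A129-2 and 10.8 M in AOS-16. It also had the fewest members at 0.

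**Figure D2:**
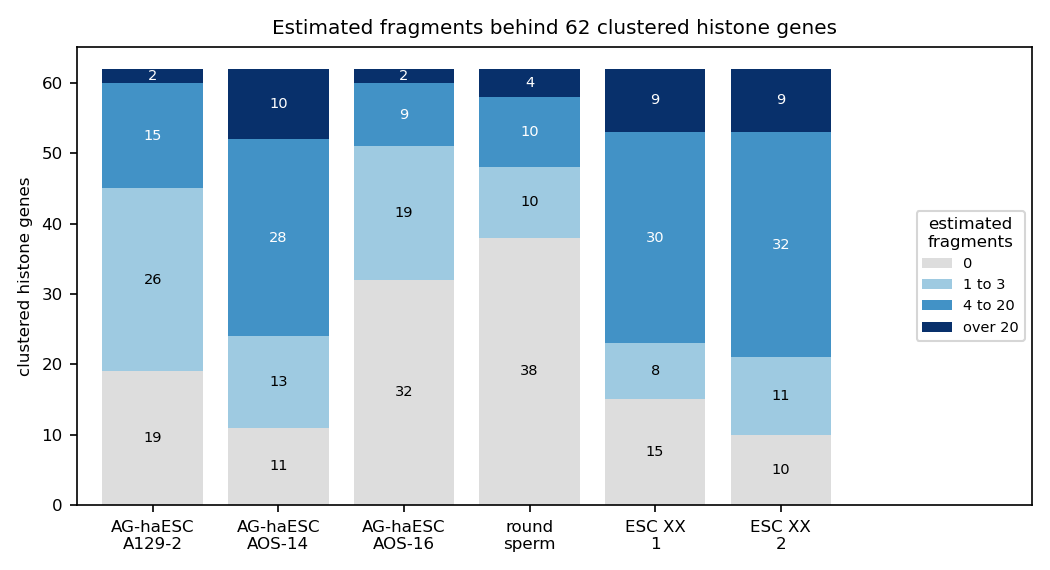
Number of clustered histone genes, of 62, by the estimated number of fragments behind their value in each library. AOS-16 had 32 of these genes at 0 and 2 over 20 fragments, whereas AOS-14 had 11 at 0 and 10 over 20, and the ESC XX libraries had 9 each over 20.

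Markers of pluripotent cells and of spermatids followed the labels. All 7 spermatid markers were lower and 5 of 6 pluripotency markers higher in AG-haESCs than in round sperm (limma, adjusted p under 0.05). Acrv1, Spaca1, Prm1, Tnp1, Spata3 and Tekt1 passed the filter only through round sperm, and Nanog and Sox2 only through AG-haESCs. For these genes the direction of a call was fixed by the filter. Tssk6 and the remaining pluripotency markers reached 1 FPKM in both groups. The sum of 5 spermatocyte markers was 28.0 to 52.6 FPKM in AG-haESCs, 220.9 FPKM in round sperm and 9.98 to 10.2 FPKM in ESC XX. This sum was highest in round sperm, but the markers differed. By limma 3 of the 5 were called lower in AG-haESCs than in round sperm, and Hormad1 and Sycp3 were not. In TPM, Hormad1 was higher in every line, at 46.9, 25.8 and 33.7 against 20.2 in round sperm. Sertoli cell markers (4 of the 5 listed are in the tables) summed to at most 2.33 FPKM in any library, and 5 Leydig cell markers to 2.86 to 5.38 FPKM, with Hsd3b1 at 0 in all 6. The part of spermatocytes in the values of round sperm was not tested. Feeder fibroblast markers differed among the stem cells and are given with ESC XX below.

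In total, the members summed to 128, 162 and 105 TPM in A129-2, AOS-14 and AOS-16, against 259.5 TPM in round sperm. The sum of round sperm came from a few genes. Hist1h2bp made up 65.8% of it, and the highest 3 genes, Hist1h2bp, Hist1h4a and Hist2h2be, made up 83.9%. Without the highest 3 genes of each library the sums were 97.2, 120.4 and 55.1 TPM in the AG-haESC lines and 41.7 TPM in round sperm. The families differed in this. The 12 H3 genes summed to 28.2, 28.3 and 10.5 TPM in the lines and to 7.44 TPM in round sperm, all of it from Hist1h3a, since the other 11 H3 genes were at 0 there. In FPKM these sums were 14.4, 20.01 and 5.72 in the lines and 9.22 in round sperm, so on that scale round sperm lay between the lines. The 18 H2B genes summed to 23.5, 49.7 and 41.8 TPM in the lines and 189.0 TPM in round sperm.

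AG-haESCs were compared with round sperm in their shared table, with the linear models of limma on log2(FPKM + 1). A call needed a difference of at least 1 on that scale and an adjusted p under 0.05 (Benjamini-Hochberg over the 15938 genes tested). Round sperm has 1 library and all spread was estimated from the 3 lines, so the p-values measure the spread between lines, and fewer cells of a type and less RNA per cell cannot be told apart. Of the 67 members, 49 reached 1 FPKM in at least 1 of the 4 libraries and were tested, 8 of them only through round sperm and 32 only through AG-haESCs. The test called 7 lower and 5 higher in AG-haESCs, and 37 were not called, while 13 had an unadjusted p under 0.05. Among all genes, 39.1% were called lower and 22.8% higher, against 14.3% and 10.2% of the members tested, so both shares of the members lay under the background. The median difference was 0.52 for the members and -0.49 for all genes, and rescaling to TPM moved the median of all genes to 0.40 and that of the members to 0.85. After that rescaling, 28.1% of all genes were called lower and 30.5% higher, and 5 members were called in each direction. Of the called members, 6 of the 7 lower ones had passed the filter only through round sperm and all 5 higher ones only through AG-haESCs, so their number carries no support of its own.

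The germline members were led by Hist1h1t, the testis-specific linker histone H1t. It was listed at 0, 0.190 and 0 FPKM in A129-2, AOS-14 and AOS-16, against 8.63 FPKM in round sperm, or an estimated 0, 2.1 and 0 fragments against 51.4. It was lower in AG-haESCs by limma, with a difference of -3.18 ± 0.14 on the log2(FPKM + 1) scale (SE, adjusted p = 0.001693), and it was at 0 in both ESC XX libraries. Hist1h2ba encodes the testis H2B known as TH2B. It had 0.419, 1.11 and 0 FPKM in the lines, against 3.21 FPKM in round sperm, a difference of -1.55 ± 0.53 that missed the threshold (limma, SE, adjusted p = 0.09179). Its testis H2A partner Hist1h2aa had 0, 0.203 and 0 FPKM in the lines and 0.369 FPKM in round sperm, too low to be tested. Both were at 0 in ESC XX. Hist1h2ba and Hist1h2aa lie next to each other at the end of the Hist1 cluster, and of the 3 germline members Hist1h1t alone was called.

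The largest differences belonged to genes not named for the testis. Hist1h2bp, an H2B gene, had 0.383, 0.776 and 0.667 FPKM in A129-2, AOS-14 and AOS-16, against 211.7 FPKM in round sperm and 0.370 and 0.583 FPKM in ESC XX. Its difference was -7.05 ± 0.20 on the log2(FPKM + 1) scale (limma, SE, adjusted p = 0.0006762), and no stem cell library came near the value of round sperm. Hist1h4a, an H4 gene, had 2.31, 1.81 and 0.332 FPKM in the lines, against 45.99 FPKM in round sperm and 1.79 and 2.16 FPKM in ESC XX. Its difference was -4.34 ± 0.69 (limma, SE, adjusted p = 0.01977). The call was lost without A129-2 (adjusted p = 0.0513), without AOS-14 (0.0854), on the TPM scale (0.0502) and with a pseudocount of 0.1 (0.0502), where limma's adjusted p over 9 alternatives ran from 0.0175 to 0.0854. An estimated 134.6 fragments in round sperm stood against 5.7, 9.7 and 1.0 in the lines.

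Their promoters, from RefSeq on GRCm38.p6, are shown because these members had the highest values in round sperm. The capitals mark CCAAT and TATAAA boxes read on either strand, so that ATTGG and TTTATA are the same boxes on the other strand. The Hist1h2bp window is chr13:21787238-21787537 on the plus strand and the Hist1h4a window is chr13:23761200-23761499 on the minus strand, each of 300 bases around the annotated start.
Hist1h2bp promoter: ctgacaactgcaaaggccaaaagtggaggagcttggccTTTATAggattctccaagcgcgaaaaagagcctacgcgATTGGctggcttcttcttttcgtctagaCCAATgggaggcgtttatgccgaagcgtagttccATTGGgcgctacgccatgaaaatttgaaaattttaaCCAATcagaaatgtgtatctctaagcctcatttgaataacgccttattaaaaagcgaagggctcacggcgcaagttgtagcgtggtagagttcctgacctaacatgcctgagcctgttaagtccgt
Hist1h4a promoter: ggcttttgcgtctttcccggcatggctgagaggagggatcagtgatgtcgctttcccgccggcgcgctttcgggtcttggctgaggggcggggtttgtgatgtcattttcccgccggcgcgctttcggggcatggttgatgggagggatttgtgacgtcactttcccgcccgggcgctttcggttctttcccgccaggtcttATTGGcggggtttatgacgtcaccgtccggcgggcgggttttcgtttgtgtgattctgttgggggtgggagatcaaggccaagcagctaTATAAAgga
The Hist1h2bp window held 4 CCAAT boxes and 1 TATAAA, and the Hist1h4a window held 1 of each. A RefSeq promoter was given for 61 members, with 62 windows in all. CCAAT was found in 85.5% of these windows, against 37.4% of all 32851 windows of that length in the table. TATAAA was found in 56.5% of them, against 13.6% of all windows, and both boxes in 46.8%, against 5.31%. The Hist1h2bp window overlaps that of Hist1h2an on the minus strand, which holds the same 4 CCAAT and 1 TATAAA. Since the search ignored the distance of a box from the start, it cannot assign these boxes to either gene. The shares count them more than once. The match is a description of letters, not of a bound site.

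The other members called lower were 3 genes of Hist2 and a pseudogene of Hist3. Hist2h2be, an H2B gene with a long annotated transcript, had 0.223, 0.523 and 0.728 FPKM in the AG-haESC lines, against 12.2 FPKM in round sperm and 0.422 and 0.520 FPKM in ESC XX. Its difference was -3.16 ± 0.25 (limma on log2(FPKM + 1), SE, adjusted p = 0.004914). Hist2h2be is one of the 6 genes that share no 50-base stretch with another clustered histone gene. Hist2h2ab, an H2A gene, was at 0 in all 3 lines, against 2.35 FPKM in round sperm (limma, adjusted p = 5.517e-05), and the pseudogene Hist3h2bb-ps was at 0 in all 3 lines, against 2.46 FPKM (limma, adjusted p = 5.517e-05). Both rest on an estimated 7.3 and 7.5 fragments in round sperm, and with every line at 0 their spread came from limma's trend, so these p-values do not carry the counting error of so few fragments. Hist2h2aa2, an H2A gene, had 0.257, 0 and 0 FPKM in the lines, against 1.87 FPKM in round sperm, or an estimated 8.3 fragments there. Its difference was -1.41 ± 0.19 (limma, SE, adjusted p = 0.01367), and the call was lost under 5 of 9 alternatives, in which adjusted p ran from 0.00456 to 0.0701. All of its 50-base stretches occur in another clustered histone gene, so the gene itself is uncertain. The call was lost without AOS-14 (adjusted p = 0.069) and without AOS-16 (0.0608).

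Hist1h3a, the one H3 gene above 0 in round sperm, had 2.64, 2.54 and 0.569 FPKM in the lines, against 9.22 FPKM there. The difference of -1.91 ± 0.68 did not pass (limma, SE, adjusted p = 0.09995). Hist3h2a, an H2A gene, had 1.62, 8.30 and 7.54 FPKM in the lines, against 6.33 FPKM in round sperm and 8.21 and 10.2 FPKM in ESC XX. The value of round sperm lay within the range of the lines. Its neighbour Hist3h2ba, an H2B gene, had 1.502, 2.35 and 3.88 FPKM in the lines and 2.49 FPKM in round sperm, within their range, but in TPM every line lay above round sperm, at 2.95, 3.32 and 7.11 against 2.01. The GENCODE M21 transcript of Hist3h2a, of 2146 nt, overlaps exons of Trim17 on the same strand. Trim17 stood at a mean of 0.129 FPKM in AG-haESCs, against 262.9 FPKM in round sperm, so reads of the 2 genes may be mixed in round sperm. RefSeq gives Hist3h2a a span of 508 nt, and which gene model lay behind the values is not known here.

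**Figure D3:**
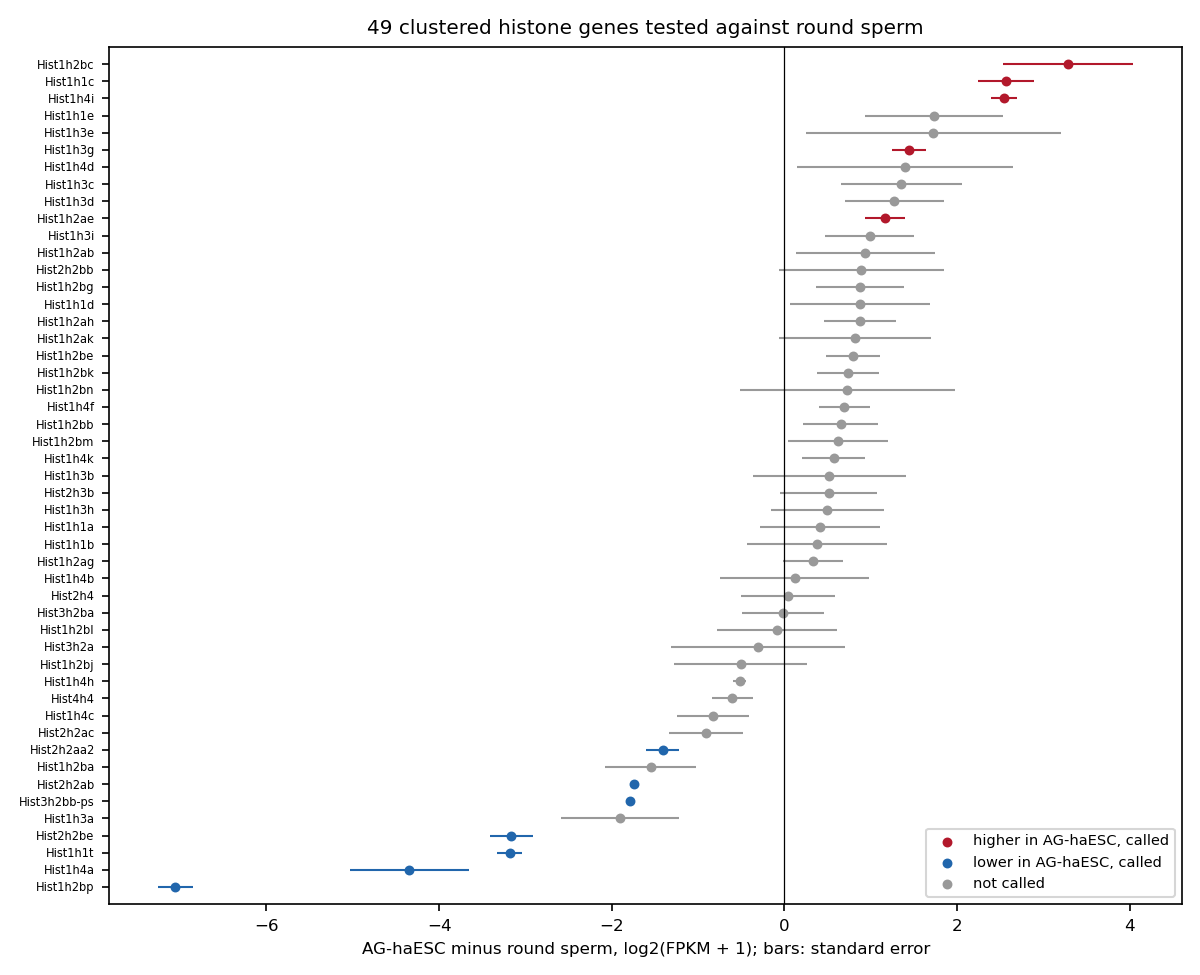
Difference of AG-haESC minus round sperm on the log2(FPKM + 1) scale with its standard error from limma, for the 49 clustered histone genes tested. The 7 genes called lower end at Hist1h2bp with -7.05, the 5 called higher begin at Hist1h2bc with 3.29, and the 37 grey genes were not called.

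The 5 members called higher in AG-haESCs were Hist1h2bc, Hist1h1c, Hist1h4i, Hist1h3g and Hist1h2ae, all in Hist1, and 4 of them were listed at 0 in round sperm. Against a value of 0, the size of a difference on the log2(FPKM + 1) scale depends on the added 1 and no fold is given. Hist1h1c, a somatic linker histone gene, had 4.34, 6.68 and 4.07 FPKM in A129-2, AOS-14 and AOS-16, against 0 in round sperm, and a difference of 2.57 ± 0.33 (limma, SE, adjusted p = 0.01257). Hist1h4i, an H4 gene, had 4.24, 5.07 and 5.28 FPKM in the lines, against 0 in round sperm, and a difference of 2.55 ± 0.15 (limma, SE, adjusted p = 0.002839). These 2 genes kept their call under each of the 9 alternatives run. Their values rest on an estimated 21.5, 71.6 and 23.6 fragments for Hist1h1c and 8.5, 21.9 and 12.4 fragments for Hist1h4i in the lines, against 0 for both in round sperm.

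Hist1h2bc, an H2B gene and the highest member in 2 of the 3 lines, had 5.24, 14.6 and 14.5 FPKM in A129-2, AOS-14 and AOS-16, against 0.175 FPKM in round sperm. Its difference was 3.29 ± 0.75 (limma, SE, adjusted p = 0.04154). The call was lost without AOS-14 (adjusted p = 0.134) and without AOS-16 (0.123), in a range of 0.00648 to 0.134 over the alternatives. Hist1h3g, an H3 gene, had 1.36, 2.10 and 1.76 FPKM in the lines against 0 in round sperm (difference 1.45 ± 0.20, limma, SE, adjusted p = 0.01422), and its call was lost without AOS-16 (0.0704, in a range of 0.00288 to 0.0704). Hist1h2ae, an H2A gene, had 1.70, 1.14 and 0.972 FPKM in the lines against 0 (difference 1.17 ± 0.23, limma, SE, adjusted p = 0.03048), and its call was lost without AOS-14 (0.114) and without AOS-16 (0.067), in a range of 0.00812 to 0.114. Hist1h3g rests on an estimated 3.8, 12.8 and 5.8 fragments in the lines and Hist1h2ae on 5.8, 8.4 and 3.9. Their p-values do not carry the counting error of so few fragments. In each of the 5 genes called higher every line lay above the round sperm library. None of the 12 called members changed sign under an alternative.

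The promoters of Hist1h1c and Hist1h4i are printed to set beside those of Hist1h2bp and Hist1h4a, with the same boxes in capitals, from RefSeq on GRCm38.p6. The windows are chr13:23738557-23738856 on the plus strand and chr13:22041313-22041612 on the minus strand.
Hist1h1c promoter: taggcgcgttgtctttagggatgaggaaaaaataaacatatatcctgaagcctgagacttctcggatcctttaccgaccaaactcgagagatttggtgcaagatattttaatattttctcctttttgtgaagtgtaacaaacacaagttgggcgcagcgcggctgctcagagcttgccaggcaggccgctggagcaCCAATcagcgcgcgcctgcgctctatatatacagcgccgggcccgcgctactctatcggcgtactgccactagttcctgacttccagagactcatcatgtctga
Hist1h4i promoter: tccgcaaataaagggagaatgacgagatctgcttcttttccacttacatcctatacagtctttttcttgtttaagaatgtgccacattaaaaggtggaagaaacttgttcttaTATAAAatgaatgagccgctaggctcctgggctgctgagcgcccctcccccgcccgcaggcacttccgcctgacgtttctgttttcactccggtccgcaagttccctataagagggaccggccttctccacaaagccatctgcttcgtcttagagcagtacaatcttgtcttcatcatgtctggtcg
The Hist1h1c window held 1 CCAAT box and no TATAAA, and the Hist1h4i window held 1 TATAAA and no CCAAT. Each of the 4 windows shown thus held at least 1 of the boxes, at whatever distance from the start.

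In gene order, as read from RefSeq on GRCm38.p6, some members with signal in round sperm were neighbours and others lay between members at 0, and whether they clump was not tested. The neighbours named here were picked after their values were seen. In the Hist1 cluster the adjacent genes Hist1h4a, Hist1h3a and Hist1h1a had means of 1.48, 1.92 and 2.37 FPKM in AG-haESCs, against 45.99, 9.22 and 1.36 FPKM in round sperm. In Hist2, the adjacent genes Hist2h2ab, Hist2h2ac and Hist2h2be had means of 0, 1.08 and 0.491 FPKM in AG-haESCs, against 2.35, 2.78 and 12.2 FPKM in round sperm. All 3 members of Hist3 were above 0 in round sperm. The members beside Hist1h2bp, Hist1h2an and Hist1h2bq, were at 0 in round sperm, though Hist1h2bq is among the near copies listed at 0 everywhere. Hist2h2aa2, Hist2h4, Hist1h4k, Hist1h1b and Hist1h4d, at 1.87, 0.508, 0.894, 0.155 and 0.557 FPKM in round sperm, also lay between members at 0.

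**Figure D4:**
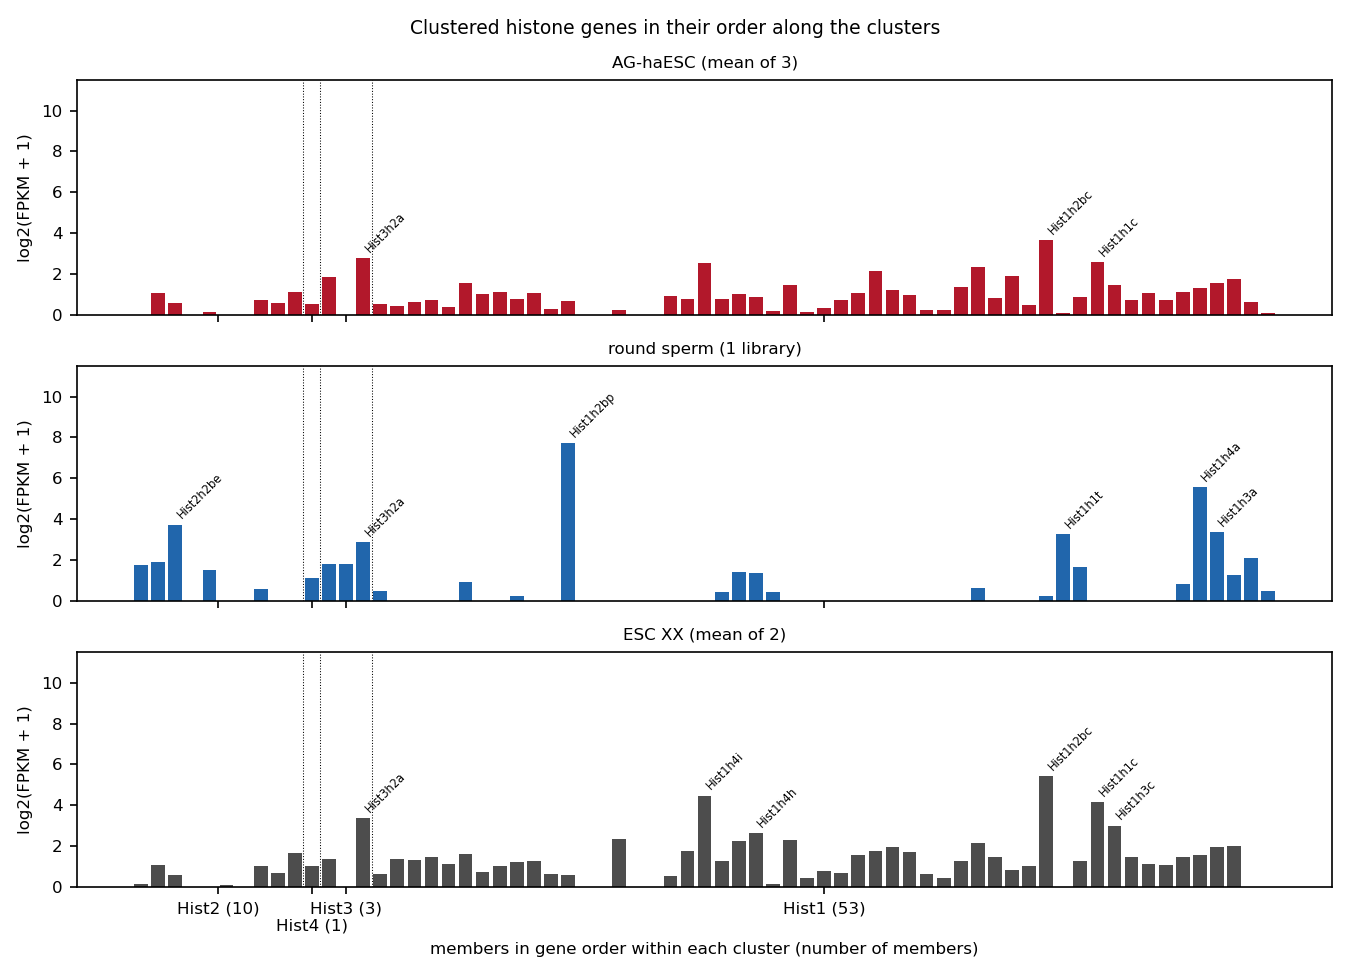
Level of each clustered histone gene as log2(FPKM + 1), with the 67 genes in their order along the Hist2, Hist4, Hist3 and Hist1 clusters, for the AG-haESC mean, the round sperm library and the ESC XX mean. Genes of at least 5 FPKM are named. In round sperm Hist1h2bp, Hist1h4a and Hist2h2be stand above genes mostly at 0, whereas the stem cells have low levels across most of Hist1.

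AG-haESCs stood below ESC XX in many clustered histone genes. The tables of ESC XX were normalized apart from the shared table, so the 5 libraries were rescaled to TPM and no test was run. A gene was called when the means of log2(TPM + 1) differed by at least 1 after removal of the median difference of all genes (-0.10) and the 3 lines lay all below, or all above, the ESC XX pair. Of the 67 members, 48 reached 1 FPKM in at least 1 of the 5 libraries, 7 of them only through ESC XX and 6 only through AG-haESCs. By this rule 13 were lower in AG-haESCs and 1 was higher, or 27.1% and 2.08% of the members compared. The shares of all 13172 genes were 8.28% and 7.37%. Of the lower members, Hist1h2ai, Hist1h4h and Hist1h4m had passed the filter only through ESC XX. The higher one, Hist1h1e, had passed only through AG-haESCs, so these calls carry no support of their own. The difference was negative for 41 of the 48 members and positive for 7, with a median of -0.67 against 0 for all genes. All 3 lines lay below both ESC XX libraries in 35.4% of the members and 25.7% of all genes, and above both in 6.25% of the members and 24.9% of all genes. The sums over all 67 members were 128, 162 and 105 TPM in the lines, against 355.7 and 328.4 TPM in ESC XX.

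The lower members were spread over all 5 families and all lay in Hist1, which held 41 of the 48 members compared. They were 6 of 13 H2B genes, 3 of 12 H4 genes, 2 of 9 H3 genes, 1 of 9 H2A genes and 1 of 5 H1 genes. Among the H2B genes, Hist1h2bc had 10.3, 20.7 and 26.5 TPM in A129-2, AOS-14 and AOS-16, against 86.0 and 78.9 TPM in ESC XX, where it was the highest member. Its difference was -2.04 ± 0.67 on the log2(TPM + 1) scale (SD of the 3 lines). Hist1h2bj had 2.50, 2.54 and 0 TPM in the lines, against 6.33 and 8.13 TPM in ESC XX, a difference of -1.72. In both genes the highest line was well below the lower ESC XX library. Hist1h2bk had 0.652, 1.69 and 1.05 TPM in the lines, against 4.53 and 4.63 TPM in ESC XX, a difference of -1.32. Hist1h2bm, Hist1h2bb and Hist1h2bg had means of 0.965, 0.986 and 1.46 TPM in AG-haESCs, against 3.37, 3.46 and 4.37 TPM in ESC XX, with differences of -1.18, -1.12 and -1.09. Each of these 3 rests on an estimated 9 to 12 fragments in each ESC XX library. The lines had fewer, at 0, 7.5 and 1.9 for Hist1h2bm, 1.0, 7.5 and 1.0 for Hist1h2bb and 1.0, 9.7 and 1.9 for Hist1h2bg. The size of these differences is therefore loosely known.

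The lower H4 genes were Hist1h4i, Hist1h4h and Hist1h4m. Hist1h4i had 8.32, 7.17 and 9.67 TPM in the lines, against 49.0 and 34.0 TPM in ESC XX, a difference of -2.07 ± 0.19 on the log2(TPM + 1) scale (SD of the 3 lines). Hist1h4h had 1.63, 1.24 and 1.31 TPM in the lines, against 10.5 and 10.0 TPM in ESC XX, a difference of -2.14 ± 0.12 (SD of the 3 lines). For Hist1h4i the spread within each group was small beside the gap. It rests on an estimated 8.5, 21.9 and 12.4 fragments in the lines, against 90.5 and 71.4 in ESC XX. Hist1h4h rests on only 1.9, 4.3 and 1.9 fragments in the lines, against 22.1 and 24.1. Its small SD does not carry the counting error of so few fragments. Hist1h4m had 0.917, 0 and 0 TPM in the lines, against 8.63 and 7.12 TPM in ESC XX, a difference of -2.73. It rests on an estimated 0.9, 0 and 0 fragments against 16.1 and 15.1. Of its 50-base stretches, 89.8% also occur in Hist1h4n, a near copy listed at 0 everywhere, so the gene itself is uncertain.

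The linker histone gene Hist1h1c had 8.52, 9.45 and 7.45 TPM in the lines, against 33.9 and 31.6 TPM in ESC XX. Its difference was -1.74 ± 0.15 (SD of the 3 lines), on an estimated 21.5, 71.6 and 23.6 fragments in the lines against 155.1 and 164.1 in ESC XX, the most fragments of any lower member with an estimate. Of the H3 genes, Hist1h3c had 2.78, 4.65 and 1.12 TPM in the lines, against 13.3 and 14.1 TPM in ESC XX, a difference of -1.95 ± 0.71 (SD of the 3 lines). Hist1h3g had 2.67, 2.97 and 3.22 TPM, against 6.97 and 8.49 TPM in ESC XX, a difference of -1.04. The H2A gene Hist1h2ai had 0.775, 0.877 and 0 TPM in the lines, against 4.06 and 1.98 TPM in ESC XX, a difference of -1.28. It rests on an estimated 1.0, 3.2 and 0 fragments in the lines, against 9.1 and 5.0. Of its 50-base stretches, 90.1% also occur in another clustered histone gene, so the gene itself is uncertain.

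One linker histone gene went the other way. Hist1h1e had 3.16, 7.53 and 2.25 TPM in the lines, against 0.996 and 1.92 TPM in ESC XX, a difference of 1.11 ± 0.72 (SD of the 3 lines). Its annotated transcript overlaps that of the H2B gene Hist1h2be on the same strand, so reads of the pair may be shared, and it dropped out without AOS-14, without the first ESC XX library, on the FPKM scale and after quantile normalization, with differences of 0.62 to 1.504 over the alternatives.

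**Figure D5:**
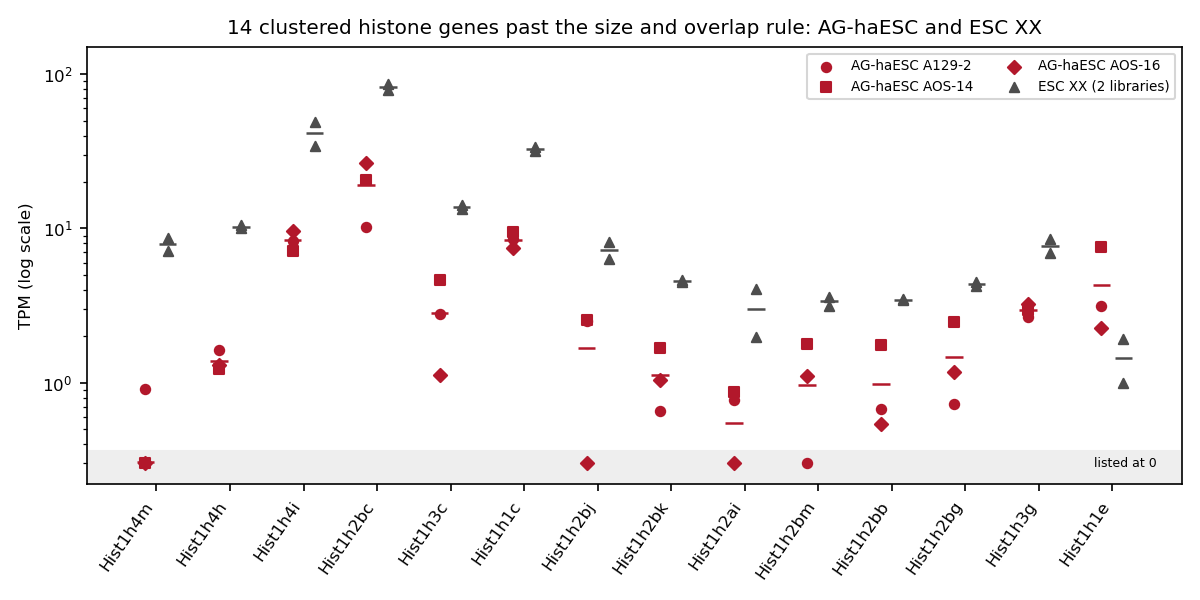
TPM (log scale) of the 14 clustered histone genes past the size and overlap rule, with the 3 AG-haESC lines in red, the 2 ESC XX libraries in grey and the group mean as a bar. In 13 genes all lines lie below both ESC XX libraries, and in Hist1h1e all lie above them.

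Several properties of the samples moved with this contrast. The AG-haESCs were sorted in G0/G1 and no sort is named for ESC XX, so sort, strain and culture cannot be told apart. The sum of 7 feeder fibroblast markers was 22.3, 127.5 and 186.5 TPM in A129-2, AOS-14 and AOS-16, against 1368 and 1369 TPM in ESC XX, and 6 of the 7 were lower in AG-haESCs by the rule. In A129-2, 1 of the 7 was listed at 0, and in the other libraries none was. The part of feeder transcripts in the histone values was not tested. The count of 13 depended on the libraries and the scale: it was 21 without AOS-14, the most deeply sequenced line, 8 on the FPKM scale and 7 after quantile normalization. Hist1h2bb and Hist1h2bg dropped out without A129-2 and without AOS-16, Hist1h2bm without A129-2, Hist1h2ai without AOS-16 and without the first ESC XX library, and Hist1h3g without A129-2 and without the second ESC XX library. Over the alternatives their differences nearest to 0 were -0.80, -0.78, -0.67, -0.90 and -0.85. The other 8 lower genes stayed past the rule with any 1 library left out. The ESC XX pair may be technical replicates, since nothing in the labels says that they were separate cultures.

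Among the 3 lines, AOS-14 most often held the highest value of a member. Of the 41 members that reached 1 FPKM in a line, AOS-14 had the highest TPM in 20 (48.8%), A129-2 in 12 (29.3%) and AOS-16 in 9 (22.0%). Over all 12637 such genes, AOS-14 was highest for 13.1%, A129-2 for 50.6% and AOS-16 for 36.3%. With genes under 200 nt left out of the total, which took 12.7% of the FPKM of AOS-14, it was highest for 56.1% of the members and 21.4% of all genes. A member that reached 1 FPKM in a single line entered the 41 through that line. Among others, Hist1h1b, Hist1h1d, Hist1h2bn, Hist1h3b and Hist2h2bb did so through AOS-14, and Hist1h3h through A129-2. AOS-14 was also the most deeply sequenced line, so its share of the 41 carries no support of its own. The part of depth was not tested. The order differed between members. Hist1h1e at 5.33 FPKM was highest in AOS-14, against 1.61 FPKM in A129-2 and 1.23 FPKM in AOS-16, whereas Hist1h2bc and Hist3h2a were high in both AOS lines and low in A129-2. The same 2 lines had more feeder fibroblast signal than A129-2. With 1 library for each line, these differences have no replicate check.

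Genes that act on histones did not move as one group. For histone mRNA, the stem-loop binding protein gene Slbp had 82.8, 58.3 and 47.7 FPKM in the lines, against 71.1 FPKM in round sperm (difference -0.21, limma, adjusted p = 0.6653) and 60.01 and 62.5 FPKM in ESC XX. Npat, the coactivator of S phase histone transcription, had 7.38, 9.78 and 7.40 FPKM in the lines, against 8.98 FPKM in round sperm (difference -0.13, limma, adjusted p = 0.6358) and 8.97 and 8.69 FPKM in ESC XX. In both genes the lines lay on either side of the round sperm value in FPKM, whereas in TPM every line lay above it, at 162.5, 82.5 and 87.3 against 57.4 for Slbp and 14.5, 13.8 and 13.6 against 7.25 for Npat. Of the 14 genes of histone mRNA transcription and end processing, 1 was lower and 2 were higher than in round sperm: Mif4gd, a partner of Slbp in translation, with a difference of -3.12, and Casp8ap2 and Lsm11, factors of the histone locus body and its processing complex, with 2.06 and 1.68 (limma, adjusted p = 0.002459, 0.003475 and 0.01033). Lsm11, at 0.32 FPKM in round sperm, passed the filter only through AG-haESCs and could only be called higher there. Against ESC XX, Mif4gd (-1.02) and Zfp473 (-1.54), a protein of the processing complex, were lower by the rule, and Lsm11 (1.02) and Cstf2 (1.06) were higher.

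Of 13 genes of G1-S and S phase, 10 were higher in AG-haESCs than in round sperm by limma. They were led by the replication genes Mcm2 (6.77), Mcm3 (6.52), Cdt1 (6.01) and Mcm4 (5.20) on the log2(FPKM + 1) scale. Mcm2, Mcm3 and Cdt1, at 0.116, 0.205 and 0.046 FPKM in round sperm, passed the filter only through AG-haESCs. These genes could only be called higher, whereas Mcm4 also reached 1 FPKM in round sperm. Against ESC XX, 0 of the 13 were called and the median difference was -0.13, although 6 of the 13 lay below both ESC XX libraries in every line. Their sums were 2085 to 2243 TPM in AG-haESCs, against 2572 and 2574 TPM in ESC XX.

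Histone variant genes outside the clusters summed to more than the members in every library. A list of 11 variants was taken as replication-independent, and their mRNA carries a polyA tail in most cases. They summed to 2195 to 2732 TPM in AG-haESCs, against 1191 TPM in round sperm and 4060 to 4093 TPM in ESC XX. Of these, 5 were higher than in round sperm by limma, among them the centromeric H3 gene Cenpa (6.21, adjusted p = 0.01085), the linker gene H1f0 (2.71, adjusted p = 0.04191), and the H2A variants H2afj (2.19, adjusted p = 0.01154) and H2afv (2.16, adjusted p = 0.01699). Cenpa, at 0.323 FPKM in round sperm, passed the filter only through AG-haESCs and could only be called higher. Against ESC XX 1 of the 11 was called, H2afx, which marks DNA breaks. H2afx is one of the 3 genes with the stem-loop that are not members, so its place among replication-independent variants is uncertain. This gene had 148.0, 95.9 and 59.96 TPM in the lines, against 507.9 and 490.4 TPM in ESC XX. Its difference was -2.29 ± 0.64 (SD of the 3 lines), beside -2.14 and -2.07 for the clustered genes Hist1h4h and Hist1h4i.

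Histones of late male germ cells outside the clusters were far higher in round sperm. Of the 6 germline variants outside the clusters, 4 were tested and were called lower in AG-haESCs by limma, but all of them passed the filter only through round sperm, so that the direction was fixed by the filter. Hils1, the spermatid linker histone, was at 0 in all 3 lines, against 1584 FPKM in round sperm (limma, adjusted p = 5.517e-05), and H1fnt was at 0 in all 3 lines, against 461.0 FPKM (limma, adjusted p = 5.517e-05). H2afb1 was at 0 in the lines, against 297.7 FPKM, and at 0 and 0.311 FPKM in ESC XX. H2afb3 had 0.617, 0 and 0 FPKM in the lines, against 27.2 FPKM in round sperm. The highest clustered germline gene in round sperm, Hist1h1t at 8.63 FPKM, lay below all 4 of these. The 5 transition protein and protamine genes, which passed the filter only through round sperm as well, stood at 978.6 to 10840 FPKM there and at most at 0.772 FPKM in an AG-haESC line.

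Among 12 histone chaperone genes, 4 were lower than in round sperm by limma on the log2(FPKM + 1) scale, led by Nasp (-3.21, adjusted p = 0.003575) and Chaf1a (-3.001, adjusted p = 0.00584), which bring new histones to DNA. Another 4 were higher, led by Atrx (4.57, adjusted p = 0.002133) and Hira (2.05, adjusted p = 0.006958), which act with the H3 variant H3.3. Atrx, at 0.173 FPKM in round sperm, passed the filter only through AG-haESCs and could only be called higher. None of the 12 was called against ESC XX, with 4 below and 4 above both ESC XX libraries in every line.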

How the data were processed

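RNA from 6 libraries was analysed from processed tables. Reads were aligned with TopHat2 2.0.13 and quantified with Cuffdiff 2.2.1 on mm9, per the submitters' processing notes. Tool settings, normalization between libraries and strand handling were not given in the sources used here. FPKM is the unit the authors deposited; the header of the table with the AG-haESC and round sperm libraries names no unit, which was inferred from the tool and the values. No column was left unmapped (0).

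FPKM were tested on log2(FPKM + 1) with limma 3.58.1 in R 4.3.3 (trend, two-sided, 2 residual degrees of freedom, genes of at least 1 FPKM in at least 1 library, Benjamini-Hochberg over all genes). TPM were computed here from the deposited FPKM. The scripts were tested on simulated data. Stem-loops came from GENCODE M21 and promoters from RefSeq GRCm38.p6, matched by synonyms, another build than mm9, so no coordinates are mapped between them. Fragments were estimated from the steps of low FPKM with RefSeq gene spans as lengths, and are approximate. Stem-loop classes and exon overlaps used GENCODE transcripts, which can be longer than these spans.

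Members and lists were chosen with earlier results of these data known. Named are the germline members, members that reach 10 FPKM or are called, the 4 largest called genes of each other list, and Slbp and Npat; Hist1h3a, Hist3h2ba and the neighbours in gene order were named after their values were seen. Alternatives were the pseudocount, the filter, TPM, TPM without genes under 200 nt, quantile normalization, no trend, and each library left out.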

Additional observations from a re-analysis of the deposited data

How the results depend on the processing

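Against round sperm, the 12 calls among clustered histone genes became 10 to 14 under the alternatives run, and with a pseudocount of 0.1 the number higher in AG-haESCs was 9 in place of 5. Leaving out 1 line gave 10 to 13 calls. Against ESC XX, the 14 genes past the rule became 8 on the FPKM scale (8 lower, 0 higher) and 7 after quantile normalization (7 lower, 0 higher). With a pseudocount of 0.1, 2 were higher. Leaving out 1 library gave 11 to 21 lower and 0 to 2 higher; the 21 came without AOS-14. The 8 and the 7 were all among the 14. The cause of these changes was not tested. No called gene changed sign. No paired analysis was possible because the groups share no replicate numbers that name the same source.

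The limits are the low counts, the single round sperm library, the lone library of each line, near-identical gene copies, the selection of polyA RNA, and the separate normalization of the ESC XX tables. Most values of 1 to 3 fragments cannot order members.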
